A study of Mus musculus with 8 samples.

Results

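The genes described here are the enzymes and regulators of de novo lipogenesis in mouse liver, the pathway that builds fatty acids from acetyl-CoA. The 10 genes were fixed by name: 7 enzymes (Fasn, Acaca, Acacb, Acly, Scd1, Elovl6 and Me1) and 3 regulators (Srebf1, Mlxipl and Thrsp). All 10 were measured, of 19540 genes in the series, and a gene with several probe sets is given by the one brightest over the 8 arrays. The 8 Affymetrix arrays comprise 4 of wild-type liver (WT) and 4 of liver depleted of HNF6 (HNF6KO), the homeodomain transcription factor encoded by Onecut1. Every array is labelled as from a male C57B/6 mouse aged 12 weeks, with normal chow, a normal light/dark schedule and no treatment, and every liver was taken at zeitgeber time 10 h, given as 5 pm. The groups thus share strain, sex, age, diet and hour, and genotype is the one labelled difference between them. How HNF6 was removed, in which cells, and whether each array is a separate animal was not given in the sources used here. Hence p-values speak of the spread among these arrays, which may be technical. The design compares depleted with wild-type liver at one hour, and the series' title places HNF6 beside REV-ERBα, a repressor of the circadian clock, in hepatic lipid metabolism.

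Lipogenesis starts when ATP citrate lyase (Acly) splits cytosolic citrate into acetyl-CoA. Acetyl-CoA carboxylase makes malonyl-CoA from it, as the cytosolic form Acaca and as the form at the mitochondrial surface, Acacb, whose malonyl-CoA restrains entry of fatty acids into mitochondria. Fatty acid synthase (Fasn) condenses malonyl-CoA into palmitate with NADPH, part of which malic enzyme (Me1) supplies, after which Elovl6 elongates palmitate and Scd1 places a double bond in the product. In liver the pathway is driven by the insulin-responsive factor SREBP-1c, a product of Srebf1, and by the carbohydrate-responsive factor ChREBP, the product of Mlxipl. Thrsp encodes a small nuclear and cytosolic protein that responds to thyroid hormone and carbohydrate and promotes lipogenesis.

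Onecut1, the targeted gene, was lower on each HNF6KO array (8.67 to 9.32, log2) than on any WT array (9.87 to 10.52), and it fell by 1.32 ± 0.18 (SE) on the log2 scale (limma, adjusted p = 0.0273). In array order Onecut1 read 10.17, 9.87, 10.45 and 10.52 in WT and 9.32, 9.05, 8.67 and 8.70 in HNF6KO. The genotypes thus lay farther apart on arrays 3 and 4 than on arrays 1 and 2, a contrast that was not tested. The hepatocyte markers checked (8 of 10 listed genes measured) were among the highest values of the arrays, with list means of 13.62 to 13.63 in WT and 13.63 to 13.71 in HNF6KO. Adipocytes also carry high lipogenic transcripts. The adipocyte list (8 of 9 measured) had means of 7.29 to 7.37 in WT and 7.21 to 7.35 in HNF6KO, above the array medians of 6.89 to 6.97. Its defining marker Adipoq lay below those medians, at 5.44 to 5.63 in WT and 5.50 to 5.64 in HNF6KO. Kupffer cell markers (9 of 9 measured) differed between arrays of one genotype: the list means, in array order, were 7.63, 8.53, 8.78 and 8.94 for WT and 8.22, 7.71, 9.35 and 9.10 for HNF6KO. The sinusoidal endothelium list (7 of 7) ran from 8.19 to 9.02 in WT and from 8.32 to 9.15 in HNF6KO. The erythroid list means did not overlap, at 8.32 to 8.48 in WT and 7.61 to 8.20 in HNF6KO, with 2 of 5 genes measured. Of those 2 genes, 1 was lower without overlap (3.21% of all genes were), and their log2 differences were -0.98 and -0.03. The part of these cell type differences in the values below was not tested. In bulk liver, a lower share of a cell type and less RNA per cell cannot be told apart.

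To show the DNA in front of these genes, the 250 bases upstream of RefSeq starts (build GRCm38.p6) were read for 9 of the 10 genes, all but Scd1. They give 13 starts, since Srebf1 has 3 and Me1 and Mlxipl have 2 each. The 4 windows below stand for the synthase (Fasn), the mitochondrial carboxylase (Acacb), an elongase (Elovl6) and the regulator with the largest difference between genotypes (Thrsp). Capitals mark the CCAAT box, a site read by NF-Y that often stands beside sterol regulatory elements (CCAAT, on either strand), the nuclear receptor half-site AGGTCA on either strand, and the TATA box (TATAAA). The windows lie at chr11:120824548-120824797 (minus strand) for Fasn, chr5:114165268-114165517 (plus strand) for Acacb, chr7:97417551-97417800 (minus strand) for Thrsp and chr3:129532136-129532385 (plus strand) for Elovl6, each printed 5′ to 3′ towards the start.
Fasn: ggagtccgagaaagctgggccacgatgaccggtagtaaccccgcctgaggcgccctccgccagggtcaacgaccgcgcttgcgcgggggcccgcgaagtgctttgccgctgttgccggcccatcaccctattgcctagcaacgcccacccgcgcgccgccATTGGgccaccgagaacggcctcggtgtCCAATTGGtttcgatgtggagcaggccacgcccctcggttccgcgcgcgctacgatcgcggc
Acacb: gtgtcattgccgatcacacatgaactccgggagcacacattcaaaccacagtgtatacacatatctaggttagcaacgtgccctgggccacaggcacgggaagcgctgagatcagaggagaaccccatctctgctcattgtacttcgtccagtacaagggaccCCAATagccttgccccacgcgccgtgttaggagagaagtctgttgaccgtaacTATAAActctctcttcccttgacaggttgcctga
Thrsp: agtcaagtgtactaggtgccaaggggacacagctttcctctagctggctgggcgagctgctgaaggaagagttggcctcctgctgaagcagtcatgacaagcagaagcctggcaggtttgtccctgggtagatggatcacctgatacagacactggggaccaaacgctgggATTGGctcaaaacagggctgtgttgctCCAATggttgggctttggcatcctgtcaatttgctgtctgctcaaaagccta
Elovl6: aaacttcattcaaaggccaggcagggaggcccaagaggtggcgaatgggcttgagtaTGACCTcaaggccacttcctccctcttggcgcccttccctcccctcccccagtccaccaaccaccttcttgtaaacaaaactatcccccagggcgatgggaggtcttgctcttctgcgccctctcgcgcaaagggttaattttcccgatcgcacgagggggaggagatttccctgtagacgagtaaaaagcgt

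A CCAAT box was found in front of 6 of the 9 genes (Fasn, Acacb, Thrsp, Srebf1, Mlxipl and Me1), or at 7 of 13 starts, while 33.8% of all 32851 starts in the table hold one. In Fasn there were 3 matches, and those that begin at -62 and -59 from the start overlap on opposite strands. Thrsp held 2 on opposite strands. The Acacb window held a CCAAT box and a TATA box, the latter present at 12.4% of all starts. The half-site AGGTCA, the core read by REV-ERBα and many other nuclear receptors, was found for Elovl6 and Acly (14.0% of all starts). The E-box CACGTG (6.02% of starts) and the sterol element TCACNCCAC (1.05%) were found for Mlxipl alone among the 9, at different starts of that gene. The letters ATTGAT, a core of HNF6 sites (6.72% of starts), were in none of the 13 windows, which says only that these letters are not within those 250 bases. Each motif was sought on both strands, and a match describes letters and not binding.

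Scd1 had the largest difference between genotypes of the 10 genes. In array order from 1 to 4, the probe set 10467979 read 12.73, 11.87, 12.55 and 11.30 (log2) in WT, and in HNF6KO it read 13.15, 13.45, 12.82 and 13.36. Each HNF6KO value was thus above the highest WT value, by a narrow margin on array 3, and the WT values spread more widely than the HNF6KO values. The group means were 12.11 ± 0.66 (SD, n = 4) and 13.20 ± 0.28 (SD, n = 4), a log2 difference of 1.08 ± 0.29 (SE), or 2.12-fold, with a 95% interval from 0.42 to 1.75. Over all genes this did not pass (limma, adjusted p = 0.239, unadjusted p = 0.00509).

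Acacb was the gene nearest to the threshold. Its probe set 10524460 read 7.92, 7.87, 8.15 and 8.35 in WT and 8.80, 8.93, 8.48 and 9.02 in HNF6KO, in the same order. No HNF6KO array reached down to the WT values, and WT array 4, the highest of its group, came within a small step of HNF6KO array 3. The means of 8.07 ± 0.22 and 8.81 ± 0.24 (SD, n = 4 each) differed by 0.74 ± 0.14 (SE), or 1.67-fold, with an interval of 0.42 to 1.05 (limma, adjusted p = 0.0806). Taken from arrays 1 and 2 alone the Acacb difference was 0.97, and from arrays 3 and 4 alone 0.50.

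The cytosolic carboxylase Acaca had a smaller difference. Its brighter probe set 10394538 read 9.81, 9.70, 9.61 and 9.16 in WT and 10.15, 10.06, 9.80 and 10.07 in HNF6KO, in array order. HNF6KO array 3 overlapped WT array 1, and the other HNF6KO arrays lay above all WT arrays. The log2 difference was 0.45 ± 0.14 (SE), with an interval of 0.14 to 0.76 (limma, adjusted p = 0.307). A dimmer Acaca probe set, 10379820, gave 0.53 ± 0.16 (limma over all probe sets, adjusted p = 0.313), and there the groups did not overlap (8.22 to 9.01 in WT, 9.10 to 9.46 in HNF6KO). The difference of Acacb exceeded that of Acaca by 0.29 ± 0.26 (SE), which was within the spread between arrays (exact permutation test over 70 assignments, two-sided, p = 0.314).

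Fasn, Acly and Me1 had overlapping groups. Fasn (10393970) read 10.61, 10.32, 10.28 and 9.35 in WT and 11.11, 10.49, 10.33 and 11.09 in HNF6KO. HNF6KO arrays 1 and 4 stood above all WT arrays, arrays 2 and 3 lay among them, and WT array 4 stood low on its own. The log2 difference of Fasn was 0.61 ± 0.28 (SE), with an interval from -0.02 to 1.25 (limma, adjusted p = 0.540).

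Acly (10391146) read 10.53, 10.28, 10.41 and 10 in WT and 10.57, 10.46, 10.52 and 10.49 in HNF6KO. The HNF6KO values were close together (SD 0.05) at the upper end of the WT range. Its log2 difference was the smallest of the enzymes, 0.21 ± 0.10 (interval -0.03 to 0.44; limma, adjusted p = 0.584). Me1 (10595480) read 11.34, 11.16, 11.31 and 10.53 in WT and 11.70, 10.95, 11.27 and 12.06 in HNF6KO, so that HNF6KO array 2 lay below 3 of the 4 WT arrays. Its log2 difference was 0.41 ± 0.25 (interval -0.17 to 0.98; limma, adjusted p = 0.687), and another Me1 probe set, 10405753, gave 0.49 ± 0.28.

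Elovl6 (10495993) read 10.44, 10.25, 10.71 and 10.37 in WT and 10.75, 10.61, 10.85 and 11.47 in HNF6KO. HNF6KO array 4 was the highest by far, and HNF6KO array 2 lay below WT array 3. The log2 difference was 0.48 ± 0.18 (interval 0.07 to 0.88; limma, adjusted p = 0.427), and 0.29 when HNF6KO array 4 was left out. WT array 4 weighed on the other enzymes: without it the difference was 0.35 for Fasn, 0.31 for Acaca, 0.10 for Acly, 0.22 for Me1 and 0.81 for Scd1, while that of Acacb was 0.83. Unlike Acacb, most enzymes had the larger difference on arrays 3 and 4. The differences from arrays 1 and 2 and from arrays 3 and 4 were 0.07 and 0.74 for Me1, 0.33 and 0.89 for Fasn, and 0.11 and 0.31 for Acly. They were 0.35 and 0.55 for Acaca, 0.33 and 0.62 for Elovl6, and 1.00 and 1.17 for Scd1. Whether the sides differ was not tested.

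**Figure D1:**
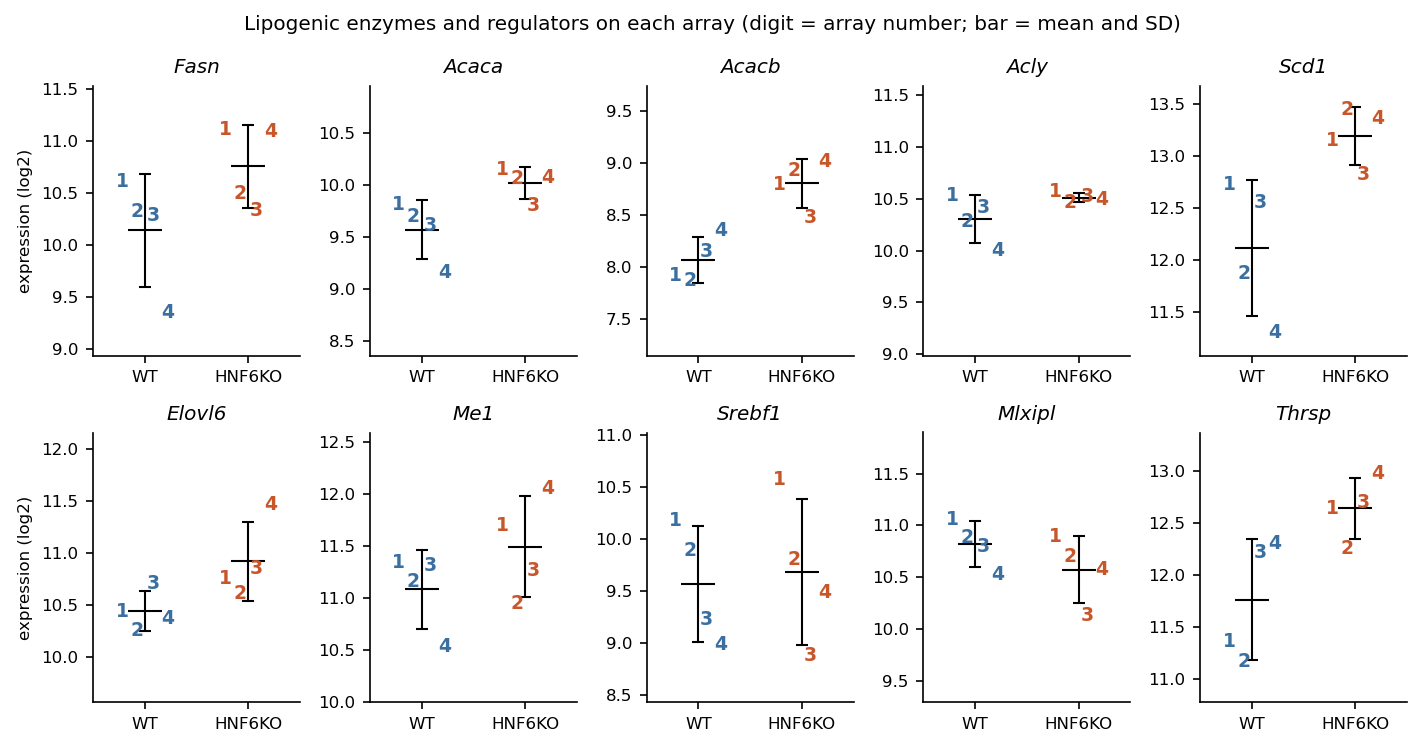
Expression (log2, vertical axis) of the 10 genes on each WT and HNF6KO array; digits are array numbers, and the bars give the mean and SD of 4 arrays. Scd1 and Acacb have no overlap between genotypes, while Srebf1 and Mlxipl overlap and WT array 4 is the lowest WT array for 7 genes.

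Of the 7 enzymes, 0 passed an adjusted p of 0.05 in limma over all genes, and all 7 had a difference above 0. Across the series 78 of 19540 genes passed (0.399%), 31 of them higher (0.159%). At an unadjusted p of 0.05, 4 of the 7 enzymes were higher (Scd1, Acacb, Acaca and Elovl6) and 0 were lower, where 4.30% of all genes were higher and 9.51% differed in either direction. Scd1 and Acacb were the 2 of 10 genes with all HNF6KO arrays above all WT arrays, a pattern of 2.45% of all genes. The median log2 difference of the enzymes was 0.48, against -0.01 over all genes, of which 42.6% were above 0.

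The regulators did not share 1 pattern. Srebf1 (10386473) read 10.18, 9.89, 9.22 and 8.98 in WT and 10.57, 9.80, 8.88 and 9.48 in HNF6KO. In both genotypes arrays 1 and 2 were above arrays 3 and 4, and the groups overlapped throughout. The means of 9.57 ± 0.56 and 9.68 ± 0.71 (SD, n = 4 each) differed by 0.12 ± 0.37 (SE), with an interval from -0.72 to 0.96 that leaves room for a change of either sign (limma, adjusted p = 0.965). The sign was not stable, at -0.18 without HNF6KO array 1 and -0.08 without WT array 4.

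Mlxipl (10526277) read 11.06, 10.88, 10.80 and 10.53 in WT and 10.89, 10.70, 10.13 and 10.58 in HNF6KO. It was the 1 gene of the 10 with a lower HNF6KO mean, and its groups overlapped. The log2 difference was -0.24 ± 0.17 (SE), with an interval of -0.62 to 0.13 (limma, adjusted p = 0.723), and it was -0.10 without HNF6KO array 3. With array quality weights it was -0.45 (limma, adjusted p = 0.183). The probe set is not known here to tell the products of the alternative Mlxipl or Srebf1 starts apart.

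Thrsp (10565609) read 11.36, 11.17, 12.22 and 12.31 in WT and 12.64, 12.26, 12.70 and 12.98 in HNF6KO. WT arrays 1 and 2 were well below WT arrays 3 and 4, and HNF6KO array 2 lay just under WT array 4, the one overlap between the groups. The log2 difference was 0.88 ± 0.27 (SE), or 1.84-fold, with an interval of 0.27 to 1.49 (limma, adjusted p = 0.307). Arrays 1 and 2 alone gave 1.19 for Thrsp, and arrays 3 and 4 alone gave 0.57. When a term for this split by array number entered the fit, Thrsp (adjusted p = 0.0246) and Acacb (adjusted p = 0.0398) passed in limma and the other 8 did not, in a fit where 245 genes passed (1.25%), 107 of them higher (0.548%). The labels do not say what the array numbers stand for, and this alternative was chosen with earlier results of these data known. The Thrsp values themselves follow the split, so these passes are no separate support for a difference. List means of Kupffer cell and sinusoidal endothelium markers were higher on arrays 3 and 4 than on arrays 1 and 2 in each genotype. The stellate cell list means did so in WT alone. The part of these marker differences in the values of Srebf1 and Thrsp was not tested.

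**Figure D2:**
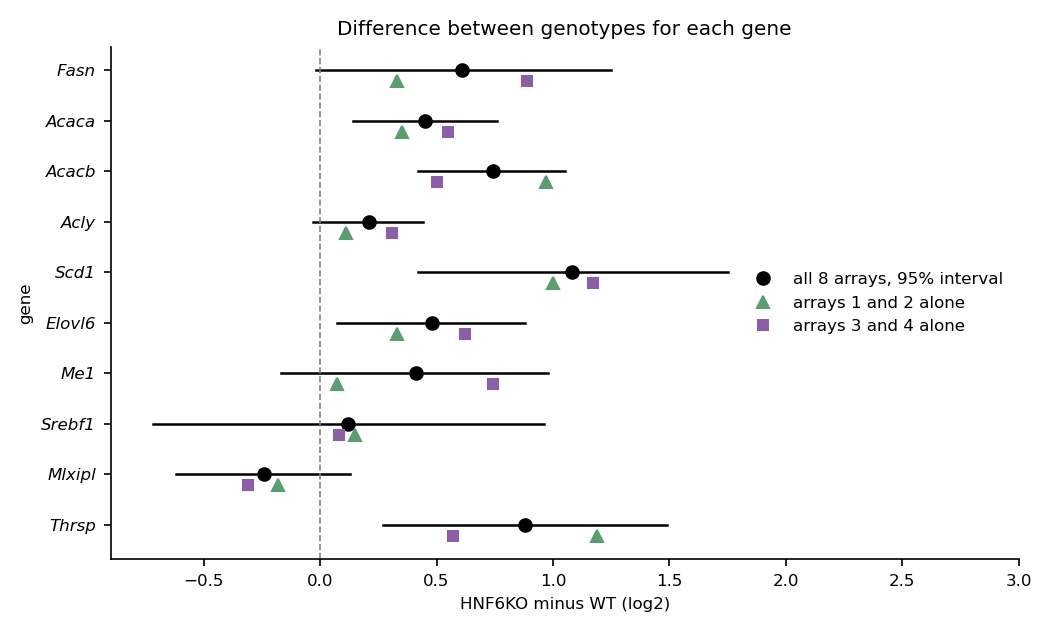
Difference between genotypes (HNF6KO minus WT, log2, horizontal axis) for each gene; circles with lines are limma estimates over 8 arrays with 95% intervals, triangles use arrays 1 and 2 alone and squares arrays 3 and 4 alone. The intervals of Scd1, Acacb, Acaca, Elovl6 and Thrsp lie above 0, and those of Srebf1, Mlxipl, Fasn, Acly and Me1 include it.

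The enzymes were also set against the regulators on the same arrays. When the Mlxipl value of an array was subtracted from the enzyme's value on the same array, the genotypes did not overlap for Scd1 (difference of log2 differences 1.33 ± 0.27, SE), Acacb (0.98 ± 0.25), Fasn (0.85 ± 0.22), Acaca (0.69 ± 0.10) and Acly (0.45 ± 0.17). Of the 19539 other genes, 257 (1.32%) were higher without overlap after the same subtraction. Mlxipl itself differed by -0.24 (limma, adjusted p = 0.723), so subtracting it raises the difference of every gene by that size. Of the 5 enzymes, Fasn, Acaca and Acly had overlapping groups before the subtraction. Each of the 5 had p = 0.0286, the smallest that an exact permutation test of 4 against 4 arrays can give (two-sided). Elovl6 (0.72 ± 0.31) and Me1 (0.65 ± 0.28) overlapped, with exact p = 0.0857 and 0.114. Against Srebf1, whose own spread was wide, 0 of 7 enzymes separated (0.0358% of all other genes did, higher in HNF6KO), and Scd1 had the largest value there (0.97 ± 0.43, exact p = 0.0571). In all 17 such tests were made, chosen after the values were seen, and 0 passed after Benjamini-Hochberg adjustment over the 17 (smallest exact adjusted p = 0.0972).

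The 10 genes did not share 1 order of arrays. In WT, array 1 was the highest and array 4 the lowest for the same 7 genes (Fasn, Acaca, Acly, Scd1, Me1, Srebf1 and Mlxipl), whereas array 4 was the highest for Acacb and Thrsp. In HNF6KO, array 1 was the highest for Fasn, Acaca, Acly, Srebf1 and Mlxipl, array 4 for Acacb, Elovl6, Me1 and Thrsp, and array 3 was the lowest for 6 genes. Over the 8 arrays, all 21 pairs of enzymes had a Pearson r above 0. Of these, 7 passed an exact permutation test adjusted over the 21 pairs (1 by Spearman's rho), and the 7 lay among Fasn, Acaca, Acly, Scd1 and Me1. These r include the difference between genotypes, which had 1 direction in all 7 enzymes. With genotype means subtracted, 16 of the 21 were above 0 and 1 passed by r, Fasn with Acaca, while the other 6 calls were lost. Fasn and Acaca had r = 0.94 (exact permutation p = 0.00171, adjusted p = 0.018) and rho = 0.98 (exact permutation p = 0.000397, adjusted p = 0.00833). Without the 2 arrays farthest from the median of Acaca their r was 0.73 (exact permutation p = 0.0792), which no longer passed. Genes measured on the same arrays share whatever sets an array apart, and 99.9% of all genes had a lower r with Acaca than Fasn had.

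Within a genotype, Acacb had r below 0 with several other enzymes. After each gene's genotype mean was subtracted, Acacb had r of -0.21 with Fasn, -0.28 with Acaca and -0.55 with Acly over the 8 arrays. It had -0.07 with Scd1, -0.11 with Me1 and 0.33 with Elovl6. None of these passed (exact permutation within genotype, smallest unadjusted p = 0.181, for Acly). By the same measure Fasn and Acaca kept r = 0.93 (exact permutation within genotype, p = 0.00174, adjusted over the 21 pairs p = 0.0365). Their rho within genotype was 0.90 (exact permutation within genotype, adjusted p = 0.0729), which did not pass. Srebf1 and Mlxipl also varied together, with r = 0.79 over the arrays (exact permutation p = 0.0166, adjusted over the 3 regulator pairs p = 0.0497; rho = 0.90, exact p = 0.00456) and r = 0.94 within genotype (exact p = 0.00347). Without the 2 arrays farthest from the Mlxipl median it was 0.72 over the other 6 arrays (exact p = 0.114). Thrsp had r below 0 with both, -0.33 to Srebf1 and -0.63 to Mlxipl, neither past the exact permutation test (p = 0.420 and 0.0973).

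**Figure D3:**
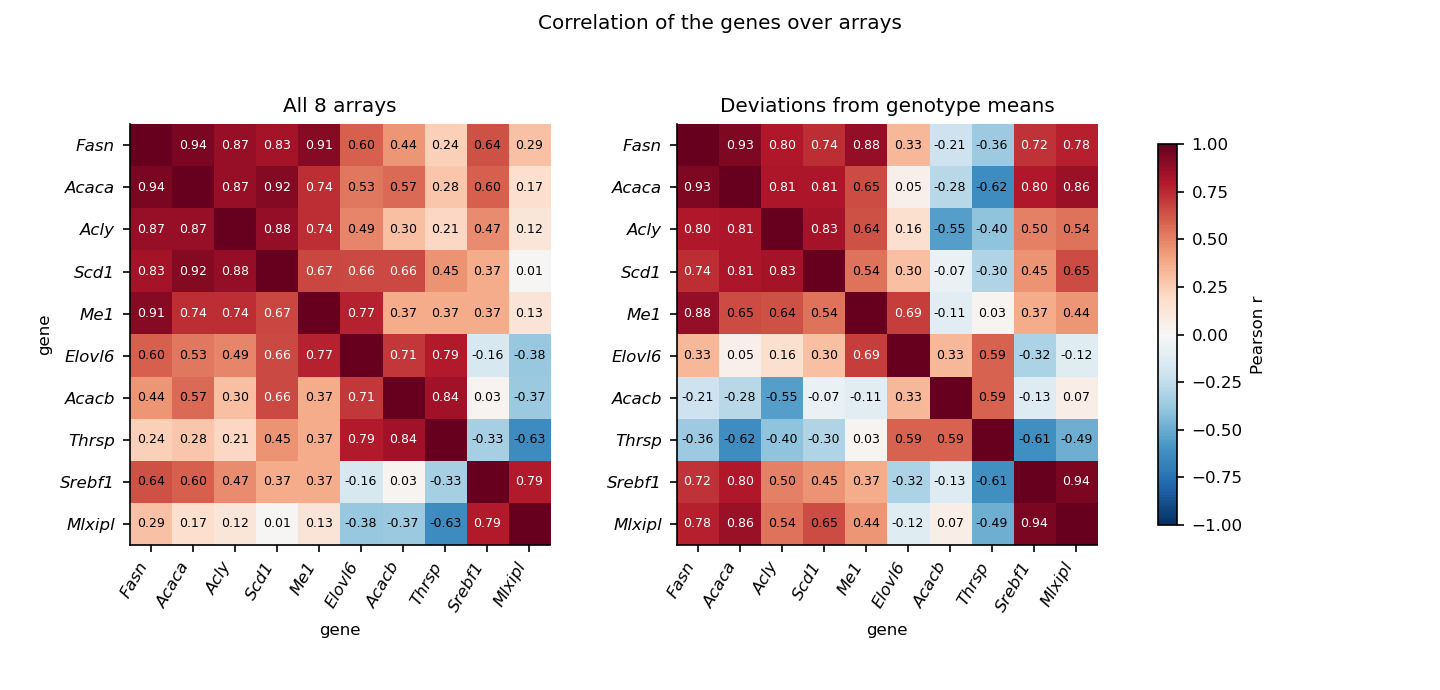
Pearson r between the genes over 8 arrays (left) and after genotype means are subtracted (right); the colour scale runs from -1 to 1 and rows and columns are the 10 genes. On the left, r among Fasn, Acaca, Acly, Scd1 and Me1 runs from 0.67 to 0.94 and among Acacb, Elovl6 and Thrsp from 0.71 to 0.84, while Elovl6 also has 0.77 with Me1 and Scd1 has 0.66 with both Acacb and Elovl6.

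Of the 21 relations between an enzyme and a regulator, 0 passed an exact permutation test adjusted over the 21, by r or by rho, and 2 had an unadjusted p at or below 0.05. Both were with Thrsp. Acacb had r = 0.84 (exact permutation p = 0.00784, adjusted p = 0.134) and rho = 0.83 (exact permutation p = 0.0154, adjusted p = 0.161), and 99.1% of all genes had a lower r with Thrsp. Without the 2 arrays farthest from the Thrsp median, which were WT arrays 1 and 2, it was 0.56 (exact permutation p = 0.218), over 6 arrays with a narrower range of Thrsp. With any 1 array left out, r of Acacb with Thrsp ran from 0.77 to 0.92. Elovl6 had r = 0.79 (exact permutation p = 0.0127, adjusted p = 0.134), rho = 0.83 (exact permutation p = 0.0154) and r = 0.85 without those 2 arrays (exact permutation p = 0.0222). Within genotype both enzymes had r = 0.59 with Thrsp (exact permutation p = 0.156 for Acacb and 0.0799 for Elovl6).

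With Srebf1, the highest r were those of Fasn (0.64, exact permutation p = 0.0813; rho 0.64, exact p = 0.0962) and Acaca (0.60, exact p = 0.109; rho 0.60, exact p = 0.132). Without the 2 arrays farthest from the Srebf1 median r was 0.57 and 0.61. At 87.1% and 84.4%, fewer genes lay below them than below the Thrsp pairs. After genotype means were subtracted, r with Srebf1 was 0.72 for Fasn and 0.80 for Acaca, and r with Mlxipl was 0.78 and 0.86, where it had been 0.29 and 0.17 over the arrays as measured. These within-genotype relations of Acaca had unadjusted exact permutation p = 0.00868 (Srebf1) and 0.00347 (Mlxipl), and adjusted p = 0.0911 and 0.0729. For example, HNF6KO array 3, with the lowest Mlxipl (10.13) of all arrays, had 9.80 for Acaca, and WT array 1, with the highest Mlxipl (11.06), had 9.81.

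Arrays 1 and 2 differed from arrays 3 and 4 in the regulators. Each side of that split holds 4 arrays, too few for a correlation of its own. After genotype and this split were both fitted, r with Srebf1 was 0.77 for Fasn, 0.57 for Acaca, 0.78 for Me1, 0.71 for Elovl6, 0.40 for Acly, 0.36 for Scd1 and 0.29 for Acacb. With Mlxipl it was 0.77 for Fasn, 0.72 for Acaca, 0.72 for Me1, 0.82 for Elovl6, 0.43 for Acly, 0.66 for Scd1 and 0.51 for Acacb. Elovl6 had -0.16 with Srebf1 and -0.38 with Mlxipl as measured. The r of Acacb with Thrsp was then 0.68 and that of Elovl6 with Thrsp 0.08. No r after both fits was tested, so the value of 0.08 does not settle whether Elovl6 and Thrsp are related.

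**Figure D4:**
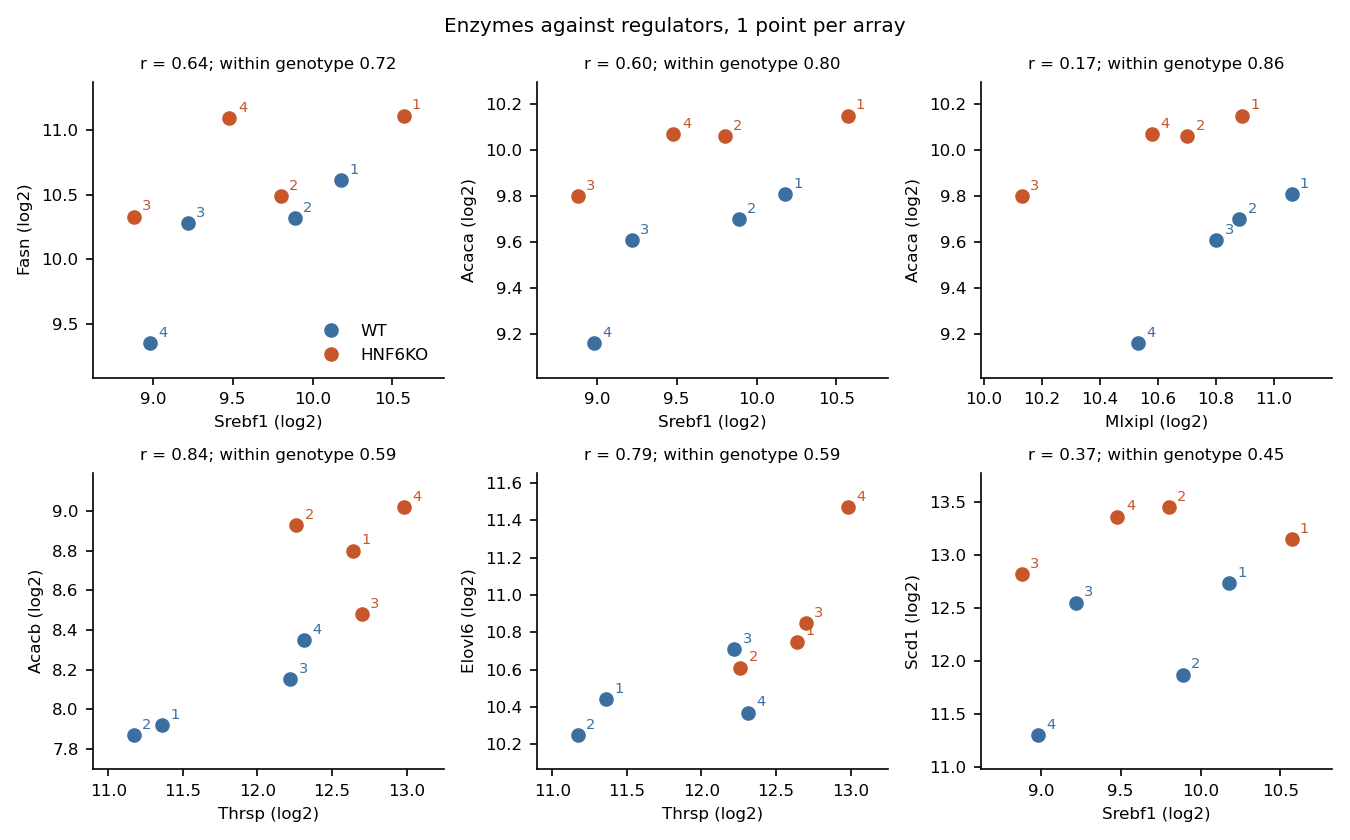
Enzyme expression (log2, vertical axes) against regulator expression (log2, horizontal axes), 1 point per array with its number, WT and HNF6KO in different colours. Within each genotype Acaca tends to be higher where Srebf1 and Mlxipl are higher, and Acacb is lowest on WT arrays 1 and 2, where Thrsp is lowest.

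Genes with provisional symbols, such as Gm or Rik names, were left out of the next comparison. Among the rest, the genes most like each regulator over the 8 arrays were not lipogenic enzymes. For Srebf1 they were Mst1r (r = 0.995), which encodes a receptor tyrosine kinase, Cfap70 (0.981) and Rps23rg1 (0.975). For Mlxipl they were the chemokine receptor gene Cxcr3 (0.980), Bpifa2 (0.973) and Grxcr2 (0.968). For Thrsp they were the mitochondrial rhomboid protease gene Parl (0.981), the urea cycle enzyme Cps1 (0.969) and Timm8a1 (0.969). An r of 0.9 or more over these 8 arrays was reached by 109 of 18280 compared genes for Srebf1, 75 for Mlxipl and 49 for Thrsp. These values are descriptions over arrays that share their processing.

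The genes around the pathway were read from 7 lists. Supply of acetyl-CoA and NADPH had 9 of 10 genes measured, 0 passing in limma and 0 at an unadjusted p of 0.05. Of the 9, 7 were above 0 (42.6% of all genes were), and the median log2 difference was 0.07. The pentose phosphate enzyme Pgd had 0.28 ± 0.15 (SE), acetyl-CoA synthetase Acss2 0.24 ± 0.14 and the cytosolic NADPH source Idh1 0.07 ± 0.05. Later elongation and desaturation (11 of 11 measured, 9 above 0, median 0.06) also had 0 passing. At an unadjusted p of 0.05, where 4.30% of all genes were higher, 1 gene of this list was higher. That gene, the elongase Elovl5, read 11.71, 11.69, 11.74 and 11.52 in WT and 12.07, 11.76, 11.94 and 12.05 in HNF6KO. Its groups did not overlap (2.45% of all genes were higher without overlap), and the difference was 0.29 ± 0.08 (limma, adjusted p = 0.256). The desaturase Fads1 had 0.19 ± 0.09 and Scd2, a relative of Scd1, 0.43 ± 0.20.

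Control of acetyl-CoA carboxylase (13 of 13 measured, median -0.01) had 0 passing in limma and 0 at an unadjusted p of 0.05. Mid1ip1, the relative of Thrsp that promotes assembly of the carboxylase into filaments, read 9.80, 9.33, 8.95 and 8.64 in WT and 9.89, 9.23, 9.30 and 9.78 in HNF6KO. WT arrays 1 and 2 were above WT arrays 3 and 4 there, opposite to Thrsp, and the difference was 0.37 ± 0.25 (limma, adjusted p = 0.718). The kinase genes Bckdk and Stk11 had -0.17 ± 0.08 and -0.07 ± 0.05.

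Genes that handle SREBP maturation and turnover mostly had differences below 0. Of 14 listed, 12 were measured, 10 lay below 0 (57.4% of all genes did) with a median of -0.09, 0 passed in limma over all genes, and 4 were lower at an unadjusted p of 0.05, where 5.21% of all genes were lower. Scap, which escorts SREBP from the endoplasmic reticulum to the Golgi, read 10.34, 10.50, 10.41 and 10.31 in WT and 10.14, 9.96, 10.20 and 10.08 in HNF6KO. The groups did not overlap, and the difference was -0.30 ± 0.07 (limma, adjusted p = 0.144). Paqr3, a Golgi protein that anchors the Scap and SREBP complex, read 7.98, 7.74, 7.99 and 8.11 in WT and 7.53, 7.58, 7.36 and 7.55 in HNF6KO, again without overlap. Its difference was -0.45 ± 0.08 (limma, adjusted p = 0.0806). These 2 were the genes of the list whose groups did not overlap (3.21% of all genes were lower without overlap). The ubiquitin ligase gene Rnf139 had -0.27 ± 0.08 and Insig2, which retains SREBP in the endoplasmic reticulum, -0.43 ± 0.16, with adjusted p = 0.314 and 0.434 in limma.

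Upstream receptors and insulin signalling (19 of 20 measured) had 17 genes below 0 and a median of -0.08, with 0 passing in limma and 4 lower at an unadjusted p of 0.05. Over all genes 57.4% were below 0, and 5.21% were lower at that p. Pparg, a nuclear receptor that drives lipogenic genes in fatty liver, had -0.42 ± 0.12 (limma, adjusted p = 0.291), and the coactivator Ppargc1b had -0.36 ± 0.12 (0.331). The thyroid hormone receptor Thrb, whose ligand induces Thrsp, had -0.18 ± 0.06 (0.403), and its groups did not overlap, as for 3.21% of all genes in that direction. The liver X receptor Nr1h3, which activates Srebf1, had -0.01 ± 0.09.

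Targets of ChREBP outside lipogenesis (13 of 15 measured, median -0.03) had 6 genes above 0 and 7 below 0, with 0 passing in limma and 1 lower at an unadjusted p of 0.05. Over all genes 42.6% were above 0, and 5.21% were lower at that p. The glycerol phosphate dehydrogenase Gpd1 read 11.50, 11.86, 11.82 and 11.55 in WT and 11.00, 10.33, 10.95 and 11.18 in HNF6KO. No HNF6KO array reached the WT values (3.21% of all genes were lower without overlap), and the difference was -0.81 ± 0.17 (limma, adjusted p = 0.128). The fructokinase Khk had 0.38 ± 0.18 and the lipid export gene Tm6sf2 0.32 ± 0.18. Targets of LXR outside lipogenesis (9 of 9 measured, median 0.03) had 0 passing in limma and 0 at an unadjusted p of 0.05. The sterol transporter Abcg5 had 0.23 ± 0.15, the phospholipid acyltransferase Lpcat3 0.12 ± 0.10 and the cholesterol transporter Abcg1 0.11 ± 0.11.

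**Figure D5:**
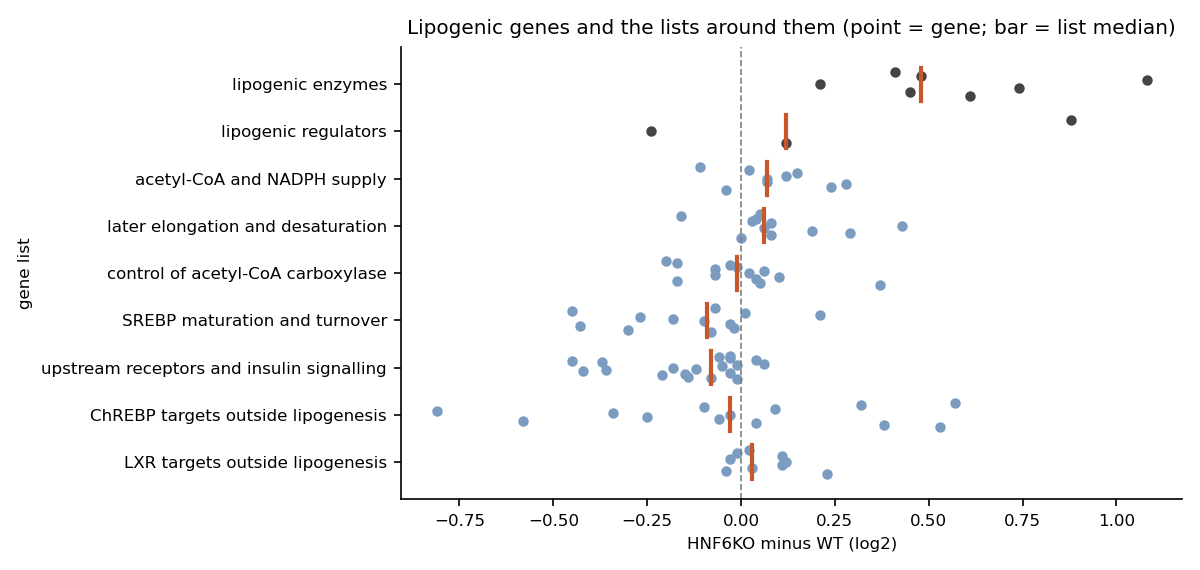
Difference between genotypes (HNF6KO minus WT, log2, horizontal axis) of each measured gene in the lipogenic sets and the 7 lists around them, with a bar at each list's median. The enzymes centre on 0.48, while the 7 lists centre between -0.09 and 0.07 and Gpd1 lies lowest at -0.81.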

How the data were processed

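Liver RNA, isolated with Trizol and biotin-labelled, was hybridised to 8 Affymetrix arrays, per the labels' protocols. The authors deposited 1 value per probe set and array, read here as log2 expression because values ran from 3.69 to 14.1. How the authors corrected, normalized and summarised the probes was not given in the sources used here. Its effect on the measurements cannot be undone. Of 22725 probe sets, 21113 had 1 gene symbol, 43 several and 1569 none here, which left 19540 genes.

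The genotypes were compared over all genes by limma 3.58.1 (lmFit, then eBayes without a trend; R 4.3.3), with Benjamini-Hochberg adjustment and a threshold of 0.05. Log2 differences are HNF6KO minus WT with the moderated SE. Relations over arrays were tested by exact permutation (all orders of 8 arrays, or all orders within genotype) in Python 3.11.15 with scipy 1.17.1. The members, lists and alternatives were chosen with earlier results of these data known. The named genes were the 10 members, Onecut1, up to 3 genes per list with the smallest p, and the 3 genes most like each regulator among those without a provisional symbol. Insig2, Nr1h3 and the marker Adipoq were named after their values were seen. The tests of an enzyme's value minus a regulator's, and the relations among enzymes and among regulators, were chosen after the values were seen. Alternatives covered normalization, a filter on dim genes, variance settings, array weights, probe set choice, array number, threshold and leaving out each array. The limma and permutation steps were tested on simulated data.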

Additional observations from a re-analysis of the deposited data

How the results depend on the processing

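With 4 arrays per genotype, precision is limited throughout. Over all genes, the 78 past the threshold became 202 with array quality weights, 125 with the array number as a replicate block, 245 with the split by array number as a term, 22 within arrays 1 and 2, 14 at a threshold of 0.01 and 162 at 0.1, and 16 to 79 with 1 array left out (26 without WT array 1, 16 without WT array 2, 28 without WT array 3, 40 without WT array 4, 27 without HNF6KO array 3 and 30 without HNF6KO array 4). Of the 10 lipogenic genes, 0 passed in limma with any 1 array left out, 1 with the replicate block (Thrsp, adjusted p = 0.0489), 2 with the split as a term, 1 within arrays 1 and 2 (Acacb, adjusted p = 0.0345) and 1 at 0.1 (Acacb). The replicate block changed no other call among the 10, and the labels give no pairing. Deviations of same-numbered arrays correlated at 0.44, 0.17, 0.51 and 0.02, not all above 0.1. Across genotypes, all 8 pairs on the same side of the split correlated above 0 (0.02 to 0.51) and 1 of 8 on opposite sides did (-0.50 to 0.02). Deviations within a genotype sum to 0 for each gene, so these correlations are not independent of each other. Of their log2 differences, Srebf1 alone changed sign, at -0.33 with array quality weights and from -0.18 to 0.39 with 1 array left out.

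The count of enzyme and regulator relations past the threshold was 0 under each alternative that was tested. The fit of genotype and the split together gave r without p-values and is not in that count. With 1 array left out, r ran from -0.04 to 0.29 for Acaca and Mlxipl, -0.25 to 0.26 for Acacb and Srebf1, -0.18 to 0.55 for Acly and Mlxipl, -0.25 to 0.14 for Scd1 and Mlxipl and -0.03 to 0.34 for Me1 and Mlxipl. With genotype means subtracted the sign turned for Thrsp with Fasn (-0.36), Acaca (-0.62), Acly (-0.40) and Scd1 (-0.30) and for Acacb with Srebf1 (-0.13) and Mlxipl (0.07). With the split fitted too it turned for Thrsp with Acaca (-0.09), Acly (-0.18) and Scd1 (-0.02), for Mlxipl with Acacb (0.51) and Elovl6 (0.82) and for Srebf1 with Elovl6 (0.71). Without the 2 arrays farthest from the Srebf1 median, Acacb and Srebf1 had -0.24. The cause was not tested.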
